A study of Macaca mulatta with 24 samples.

Results

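The genes described here are 10 markers of striatal interneurons, SST, NPY, NOS1, PVALB, CALB2, TAC3, LHX6, TH, CCK and VIP, taken by symbol from the 17208 gene symbols of the expression table of the study. All 10 were found, and all 10 were among the 13637 genes kept for testing, whose level averaged 1 TPM or more. The values were taken as TPM, a share of all transcripts in a library that allows for gene length. The unit was inferred from the values, and the comparison of levels between genes rests on it. The RNA came from the core of the nucleus accumbens (NAcc) of 24 unrelated adult male rhesus macaques, 1 library per animal. The 8 Control animals had water and a maltose dextrin solution matched in calories, and the other animals had long daily open access to ethanol beside water. Drinkers were not assigned to their group but were sorted by what they drank. The 8 LD* animals (low and binge drinkers) took 0.47 to 2.07 g/kg of ethanol a day, and the 8 HD* animals took 2.74 to 3.78 g/kg. HD* joined 4 heavy drinkers (HD, 2.74 to 3.09 g/kg) and 4 very heavy drinkers (VHD, 3.09 to 3.78 g/kg). The animals came from 4 cohorts, and Controls and HD* animals occurred together only in cohort 5 (3 Control, 4 HD*) and cohort 7a (2 Control, 3 LD*, 4 HD*). Cohort 7b held 3 Control and 3 LD* animals, and cohort 4 held 2 LD* animals. Cohort 5 and cohort 7a each held 2 HD and 2 VHD animals.

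Most neurons of the striatum, of which the NAcc is the ventral part, are GABAergic projection neurons, and interneurons are a small minority that shapes their firing. Low-threshold spiking interneurons make the peptides somatostatin (SST) and neuropeptide Y (NPY) together with the neuronal nitric oxide synthase NOS1, while fast-spiking interneurons are known by the calcium-binding protein parvalbumin (PVALB). Calretinin (CALB2) marks a further class that is prominent in primates, TAC3 encodes the peptide neurokinin B, and LHX6 is a transcription factor of interneurons born in the medial ganglionic eminence (MGE). Tyrosine hydroxylase (TH) is the rate-limiting enzyme of dopamine synthesis, and the peptides cholecystokinin (CCK) and vasoactive intestinal peptide (VIP) mark interneurons best known from cortex, where CCK is also made by excitatory neurons.

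The labelled tissue was checked with 10 markers of striatal projection neurons, among them PPP1R1B, PENK and DRD1. None was at 0 in any animal, and their summed level was 2715 to 11916 TPM in 23 animals. Control 6 stood apart with 772 TPM, the lowest median correlation with the other libraries (0.924, next lowest 0.951), the highest summed oligodendrocyte markers (9440 TPM) and the highest NGFR, a neurotrophin receptor of cholinergic neurons (185 TPM). NGFR was above 20 TPM also in Control 8 (77.1 TPM) and VHD 2 (26.5 TPM), against at most 8.91 TPM in the other 21 animals. SLC17A7, the vesicular glutamate transporter of cortical excitatory neurons, was above 200 TPM in LD 4 (722 TPM), Control 2 (348 TPM) and LD 2 (212 TPM). Differences between HD* and Control that moved most with one of these animals are given also without it. The reads of each animal are not in the table, so no counting error can be given. In bulk RNA, fewer cells of a type and less RNA per cell cannot be told apart.

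SST and NPY were by far the most abundant of the 10 genes, with mean levels of 738 ± 203 and 571 ± 149 TPM (SD, n = 24). They ranked 224 and 297 among the 13637 genes. TAC3 (91.9 ± 58.0 TPM) and CALB2 (57.4 ± 56.8 TPM) followed, and then CCK (23.9 TPM, median 8.67 TPM), LHX6 (18.5 ± 6.97 TPM) and NOS1 (12.6 ± 3.64 TPM). TH (3.30 TPM), PVALB (3.06 TPM) and VIP (1.31 TPM) were close to the filter.

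No gene of the 10 was at 0 in any animal. NPY lay above TAC3 in 24 of 24 animals, SST above NPY in 22, LHX6 above NOS1 in 23 and NOS1 above TH in 23. The order was less clear between TAC3 and CALB2, where TAC3 was the higher in 17 of 24 animals, between TH and PVALB (17 of 24) and between PVALB and VIP (18 of 24). CCK exceeded LHX6 in only 4 of 24 animals although its mean was higher, since its mean rests on a few animals with very high values.

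All 10 genes varied more over animals than most genes did, and 4 of them less than the rest. The SD of log2(TPM + 1) was 0.40 for NOS1, 0.44 for SST, 0.44 for LHX6 and 0.45 for NPY, which placed these genes between percentiles 71.0 and 79.0 of all genes tested. It was 1.78 for CCK (percentile 99.9), 0.96 for PVALB (98.7), 0.90 for TAC3 (98.2), 0.80 for VIP (97.1), 0.77 for CALB2 (96.5) and 0.63 for TH (93.0). The highest level was 4.08 times the lowest for SST and 37.9 times the lowest for PVALB.

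**Figure D1:**
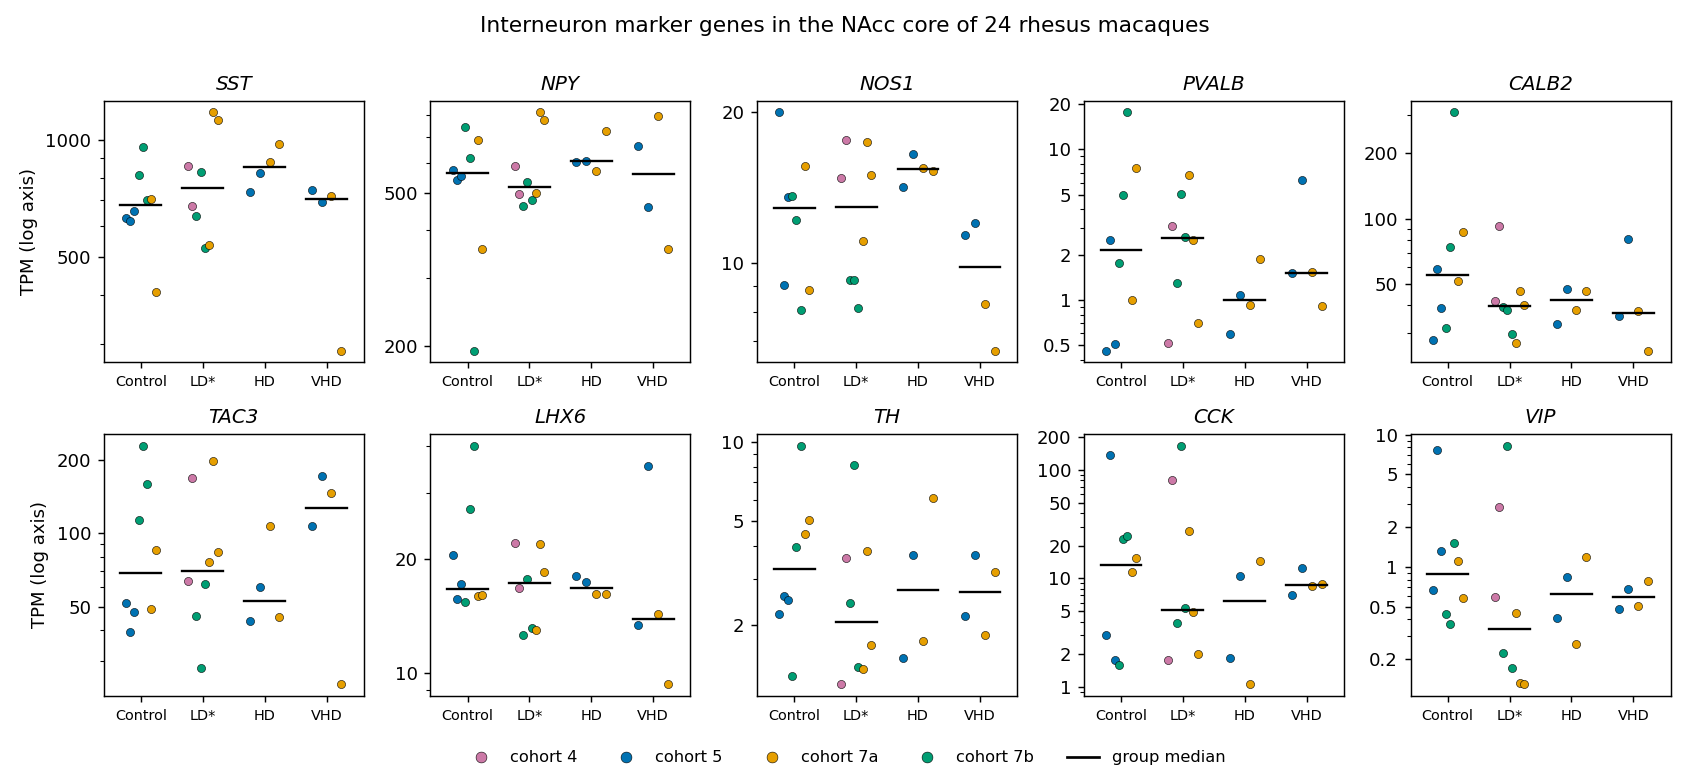
TPM (log axis) of the 10 genes in each of the 24 animals, by drinking group, with points coloured by cohort and a bar at the group median. The groups overlap for every gene except NOS1 in HD (14.2 to 16.5 TPM) and VHD (6.70 to 12.0 TPM), and single animals lie far above the rest in PVALB, CALB2, CCK and VIP.

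The comparison of HD* with Control asks whether heavy drinking goes with another level of these transcripts. None of the 10 genes passed the test (limma, adjusted p under 0.05 required, 0.706 to 0.986 found), and 0% of the 13637 genes were called. Without adjustment 775 genes (5.68%) had p under 0.05, none of them among the 10. The study itself, with DESeq2 on read counts, did report genes at a false discovery rate under 0.05 in this comparison. Why the 2 analyses differ was not tested. Of the 10 genes, 8 were lower and 2 higher in HD*, with a median log2 difference of -0.25, but the median over all genes was -0.12 and 22.2% of all genes were higher. After TMM rescaling, which brought the median of all genes to 0.00094, 6 of the 10 were lower and 4 higher.

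SST, whose product inhibits transmitter and hormone release, ran from 408 through a median of 679 to 960 TPM in Control, from 528 through 752 to 1176 TPM in LD*, and from 288 through 738 to 973 TPM in HD*. The groups overlapped over most of their range, the lowest value was that of VHD 4 and the highest that of LD 7. The log2 difference was 0.06 ± 0.21 (SE) for HD* versus Control (95% interval -0.39 to 0.50) and 0.19 ± 0.21 for LD* versus Control.

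NPY, a peptide co-released with somatostatin, ran from 195 through 564 to 744 TPM in Control, from 464 through 518 to 812 TPM in LD*, and from 357 through 605 to 796 TPM in HD*. Control 6 was the lowest animal, and LD 7 was the highest as it was for SST. The log2 difference was 0.22 ± 0.22 for HD* versus Control (95% interval -0.22 to 0.67) and -0.03 without the 3 animals with high NGFR. NPY per SST had a median of 0.79 over 24 animals, with 0.279 in Control 6 and at least 0.642 in each of the others.

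NOS1, which makes the diffusible messenger nitric oxide, ran from 8.06 through 12.9 to 19.96 TPM in Control, from 8.13 through 12.9 to 17.6 TPM in LD*, and from 6.70 through 13.1 to 16.5 TPM in HD*. The 3 groups had nearly the same median. The log2 difference of -0.01 ± 0.20 for HD* versus Control had a 95% interval of -0.43 to 0.40. The study, with DESeq2 on read counts, lists NOS1 among membrane genes lower in its heavy and very heavy drinkers. The TPM values used here do not show that difference, and the reason was not tested.

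PVALB ran from 0.463 through 2.14 to 17.5 TPM in Control, from 0.516 through 2.56 to 6.71 TPM in LD*, and from 0.591 through 1.29 to 6.27 TPM in HD*. Control 6 was the highest and Control 8 the next, both with high NGFR. The log2 difference for HD* versus Control was -0.58 ± 0.45 (95% interval -1.50 to 0.35), and -0.25 without Control 6.

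CALB2 ran from 27.9 through 55.2 to 309 TPM in Control, from 26.9 through 39.6 to 92.2 TPM in LD*, and from 24.8 through 37.9 to 80.7 TPM in HD*. Control 6 lay far above the next highest animal (LD 2, 92.2 TPM), and the groups overlapped. The log2 differences were -0.59 ± 0.35 for HD* versus Control (95% interval -1.31 to 0.13) and -0.57 ± 0.35 for LD* versus Control, and without Control 6 they were -0.26 and -0.24.

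TAC3 ran from 39.4 through 68.5 to 229 TPM in Control, from 27.9 through 69.8 to 199 TPM in LD*, and from 24.1 through 83.3 to 172 TPM in HD*. High values occurred in each group, and the log2 difference for HD* versus Control was -0.13 ± 0.43 (95% interval -1.02 to 0.77). LHX6 was at 9.35 to 40.0 TPM, with Control 6 and VHD 2 the highest. Its log2 difference was -0.26 ± 0.21, with -0.12 without Control 6 and -0.41 without VHD 2. Without the 3 animals with high NGFR it was -0.30. TH was at 1.19 to 9.67 TPM, with Control 6 and LD 4 the highest, and its log2 difference was -0.25 ± 0.30 (-0.070 without Control 6).

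CCK ran from 1.61 through 13.4 to 136 TPM in Control, from 1.77 through 5.10 to 166 TPM in LD*, and from 1.07 through 8.67 to 14.4 TPM in HD*. LD 4, Control 2 and LD 2, the animals with SLC17A7 above 200 TPM, were the 3 highest, and all HD* animals lay below them. The log2 difference for HD* versus Control was -0.70 ± 0.84 (95% interval -2.43 to 1.03) and -0.21 without Control 2, and HD* versus LD* turned from -0.73 to 0.35 without those 3 animals. VIP was at 0.130 to 8.22 TPM, again with LD 4, Control 2 and LD 2 the highest, and its log2 difference for HD* versus Control was -0.44 ± 0.38 (-0.16 without Control 2).

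**Figure D2:**
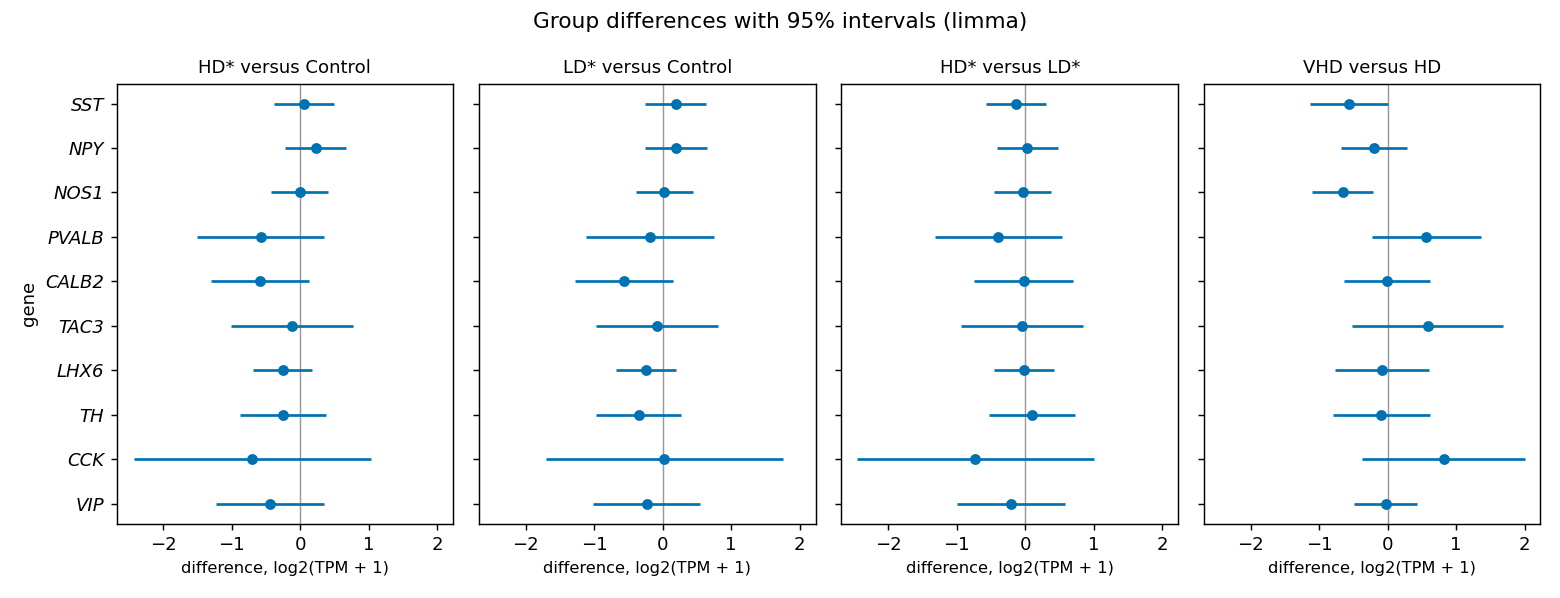
Differences in mean log2(TPM + 1) for the 10 genes in 4 comparisons (points, limma) with 95% intervals (lines). All intervals include 0 except that of NOS1 in VHD versus HD (-1.11 to -0.21), and the CCK intervals are the widest.

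LD* versus Control gave no call among the 10 genes (limma, adjusted p of 1.00 after rounding in each), and 0% of all genes were called, with 2.84% at an unadjusted p under 0.05. HD* versus LD* gave no call among them either (limma, adjusted p 0.937 to 0.992, 0% of all genes called, 1.08% unadjusted), and the ranges of the 2 groups overlapped for all 10 (0.00733% of all genes did not overlap). The 16 drinkers were also fitted against daily ethanol intake. No slope passed (adjusted p 0.564 to 0.917, 0% of genes called, 6.65% unadjusted), and the slopes ran from -0.43 ± 0.44 per g/kg for CCK to 0.04 ± 0.16 for TH. LD* and HD* intakes did not overlap, so intake and drinking group were hardly separate in this fit.

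The VHD and HD animals differed widely in the whole table, with 1997 genes called (14.6%), of which 1556 were lower in VHD (11.4%) and 441 higher (3.23%) at an adjusted p under 0.05. None of the 10 genes was among them. Of the 10, 7 were lower and 3 higher, where 34.8% of all genes were higher, and after TMM rescaling 3 were lower and 7 higher. Of all genes 32.7% had an unadjusted p under 0.05. With all 24 animals in 1 model, 0 genes were called by limma (4608 at an unadjusted p under 0.05).

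NOS1 came closest. Its levels were 14.2, 16.5, 15.5 and 15.3 TPM in HD 1 to HD 4 and 11.4, 12.0, 8.31 and 6.70 TPM in VHD 1 to VHD 4. All 4 VHD animals lay below all 4 HD animals, in cohort 5 (VHD 1 and 2 against HD 1 and 2) and in cohort 7a alike. Of all genes 23.3% separated these groups, 17.9% with VHD lower. The log2 difference was -0.66 ± 0.21 (95% interval -1.11 to -0.21, limma adjusted p = 0.0519). The exact two-sided permutation test gave p = 0.0286, the smallest that 4 against 4 animals allow. The adjusted p fell under 0.05 with TMM rescaling (0.0214), with cohort as a covariate (0.0307), with a filter of 10 TPM (0.0426), without VHD 1 (0.0495) and without VHD 2 (0.0116). In that order, 2648, 2757, 2186, 2073 and 4651 genes were called in all, against 1997 in the main fit. The filter of 10 TPM left 9197 genes to test, and the other settings 13637. For NOS1 the adjusted p was 0.0723 to 0.155 without any other animal of the 8. It was 0.0738 with no filter and 0.0853 with all 24 animals in 1 model.

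SST was at 733, 823, 877 and 973 TPM in HD 1 to HD 4 and at 743, 692, 719 and 288 TPM in VHD 1 to VHD 4. VHD 1 lay above HD 1, and VHD 4 lay far below the rest. The log2 difference of -0.57 ± 0.26 (adjusted p = 0.157) became -0.24 without VHD 4.

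NPY was at 604, 606, 570 and 728 TPM in HD and at 664, 460, 796 and 357 TPM in VHD. The VHD values lay on both sides of the HD values, and the log2 difference was -0.20 ± 0.22. TAC3 was at 43.6, 60.0, 107 and 45.5 TPM in HD and at 107, 172, 146 and 24.1 TPM in VHD. Its log2 difference of 0.58 ± 0.51 (adjusted p = 0.447) was 1.21 (adjusted p = 0.0209) without VHD 4, where 1813 of 13637 genes were called. VHD 4 was the animal lowest in SST, NOS1, CALB2, TAC3 and LHX6 of all 24.

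The summed projection neuron markers also separated these groups, at 9239 to 10838 TPM in HD and 3513 to 6252 TPM in VHD, and 9 of the 10 markers were called lower in VHD (11.4% of all genes). With the mean level of these markers as a covariate, 0 genes in all were called by limma (1552 at an unadjusted p under 0.05) and NOS1 had an adjusted p of 0.444. The log2 difference of NOS1 was then -0.88. Since the markers themselves separated HD from VHD, group and covariate were hardly separate in this fit, and a loss of calls is what such a fit gives. The part of the markers in the calls and in NOS1 was therefore not tested. NOS1 per 1000 TPM of these markers was 1.39 to 1.78 in HD and 1.08 to 3.42 in VHD, so that this ratio overlapped.

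**Figure D3:**
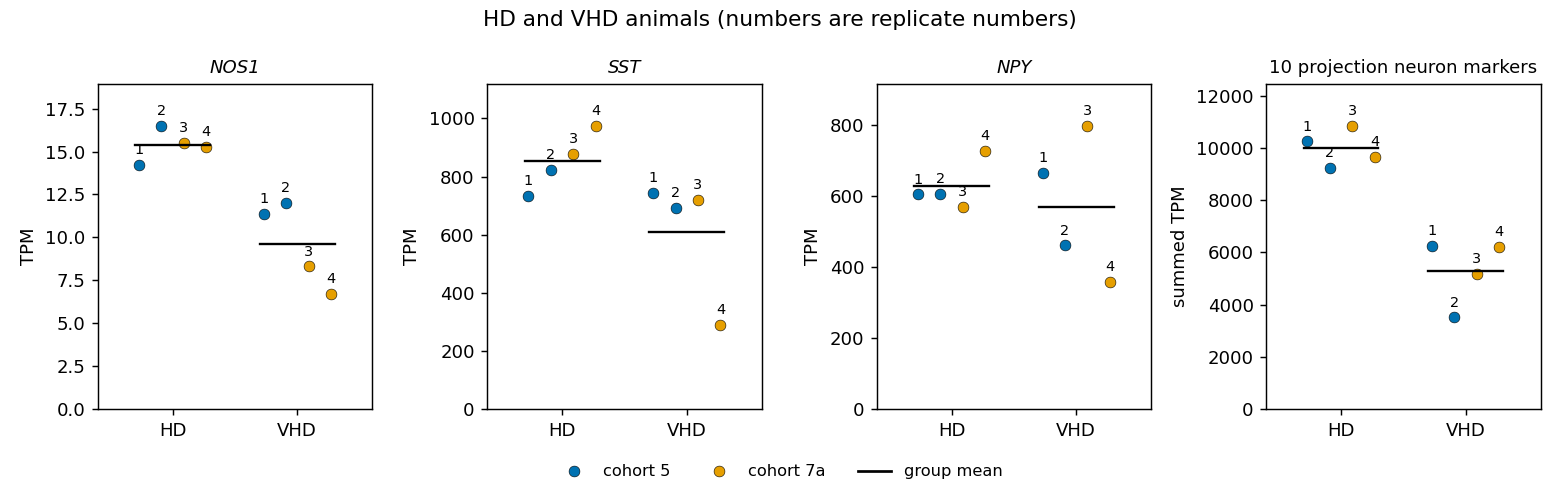
TPM of NOS1, SST and NPY and summed TPM of 10 projection neuron markers in the 4 HD and 4 VHD animals, coloured by cohort, with the animal's number above each point and a bar at the group mean. NOS1 and the summed markers separate the groups, SST and NPY do not, and VHD 4 is the lowest for all 3 genes.

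Cohort gave 0% of genes called with drinking group in the model (8.36% unadjusted), and its F ranged over the 10 genes from 0.04 for SST to 2.29 for NOS1 (adjusted p = 0.540). The HD* effect in cohort 5 and in cohort 7a could be set side by side. Log2 differences from Control were 0.23 and 0.27 for SST, 0.06 and 0.24 for NPY, and -0.01 and -0.12 for NOS1. They pointed in opposite directions for PVALB (0.49 and -0.85), CALB2 (0.20 and -0.88), LHX6 (0.14 and -0.21) and TH (0.09 and -0.56), and were 0.85 and 0.00085 for TAC3, -0.58 and -0.95 for CCK and -1.01 and -0.15 for VIP. No difference between the cohorts passed (limma, adjusted p of 1.00 after rounding for each gene, 0% of all genes called, 2.16% unadjusted).

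Within a cohort the numbers are small, and non-overlapping groups are common across all genes. SST in cohort 5 was at 620 to 659 TPM in the 3 Control and 692 to 823 TPM in the 4 HD* animals, and did not overlap (3.59% of all genes, 1.04% with HD* higher). CALB2 in cohort 7a was at 51.7 and 86.6 TPM in the 2 Control animals, 24.8 to 46.7 TPM in HD* (9.63% of all genes did not overlap, 7.77% with HD* lower) and 26.9 to 46.7 TPM in LD* (14.5%, 7.67% with LD* lower), and both comparisons use the same 2 Controls. TH and VIP were likewise lower in LD* than in those 2 Controls.

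TAC3 showed the widest gap within a cohort. In cohort 7b it was at 114, 229 and 159 TPM in Control 4 to Control 6 and at 45.6, 27.9 and 61.7 TPM in LD 3 to LD 5. All 3 LD* animals lay below all 3 Controls (6.94% of all genes did not overlap, 6.14% with LD* lower), and 3 against 3 animals cannot give an exact two-sided p below 0.1. In cohort 7a the LD* animals were at 75.9 to 199 TPM and the 2 Controls at 48.8 and 85.3 TPM, in the other direction. The log2 effects were -1.88 in cohort 7b and 0.73 in cohort 7a, and their difference of -2.62 ± 0.63 did not pass (limma, adjusted p = 0.988, where 0% of all genes were called and 2.29%, TAC3 among them, had an unadjusted p under 0.05).

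Over the 24 animals the markers of low-threshold spiking interneurons were positively correlated, though many other genes were closer to each. Pearson's r of log2(TPM + 1) was 0.61 for SST with NOS1, 0.59 for SST with NPY and 0.56 for NPY with NOS1, and Spearman's rho was 0.52, 0.73 and 0.53. SST with NPY gave r = 0.78 without the 2 animals farthest from the median in NPY, and 0.47 without the 2 farthest in SST. These values describe 24 libraries that differ in group, cohort and cell make-up, and among all genes correlated with NPY, SST ranked 859 and NOS1 1154. For SST, NOS1 ranked 2916 and NPY 3357, and for NOS1, SST ranked 3999 and NPY 4647.

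A further set of high correlations was formed by CCK with VIP (r = 0.79, rho = 0.57), CALB2 with LHX6 (0.71 and 0.51), PVALB with CALB2 (0.69 and 0.43) and CALB2 with TH (0.66 and 0.64). CCK with VIP fell to r = 0.58 without the 2 animals farthest in CCK, and PVALB with CALB2 to 0.39 without the 2 farthest in PVALB. NPY ran against PVALB (r = -0.60) and CALB2 (r = -0.58), but without the 2 animals farthest in the latter genes r was -0.20 and -0.07. Of the 45 pairs, 11 had r above 0.5 and 16 had r below 0.

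**Figure D4:**
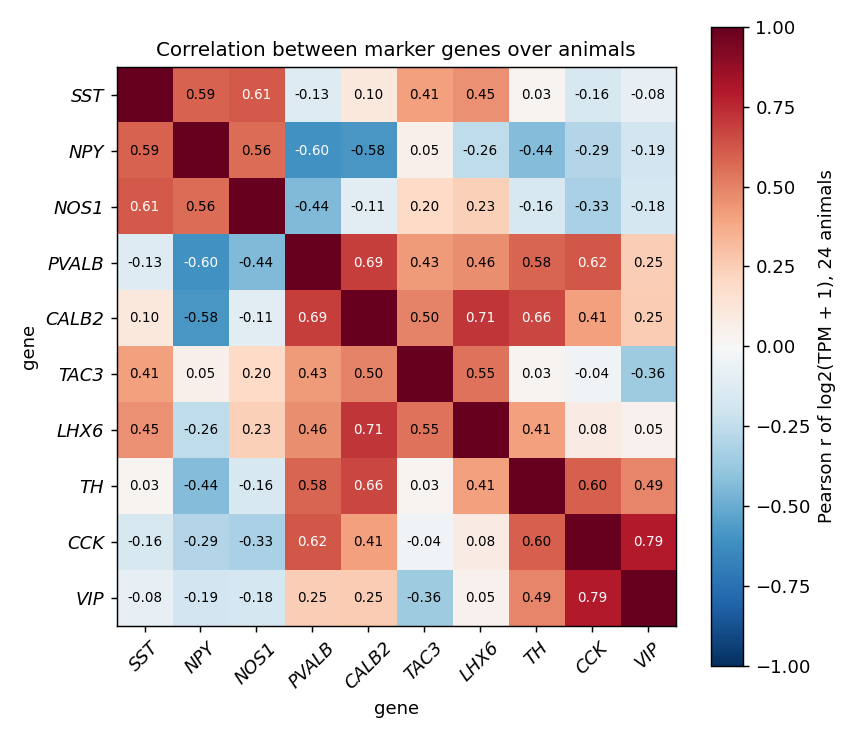
Pearson's r of log2(TPM + 1) between each pair of the 10 genes over 24 animals, on a colour scale from -1 to 1. SST, NPY and NOS1 form a block with r of 0.56 to 0.61, CCK and VIP have the highest r (0.79), and NPY is negative with PVALB and CALB2.

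With the sum of CORT and CHODL, 2 markers of somatostatin interneurons, r was 0.87 for NPY, 0.48 for NOS1 and 0.44 for SST. LHX6 had r = 0.83 with summed MGE transcription factors. PVALB had r = -0.01 (rho = -0.12) with summed fast-spiking interneuron markers. For summed markers of the caudal ganglionic eminence, r was -0.60 for CALB2 (-0.17 without the 2 animals farthest in the sum) and -0.35 for VIP (-0.43). Several of the 10 genes were correlated with summed markers of other cells. PVALB ran against the summed projection neuron markers, with r = -0.90 and rho = -0.89 over 24 animals, and r = -0.83 without the 2 animals farthest in the sum. CCK followed the summed markers of pallial (cortical-type) excitatory neurons, with r = 0.82, rho = 0.78 and r = 0.70 without 2 animals, and VIP did so with 0.77, 0.69 and 0.60. That sum was 7.76 to 962 TPM, and the 3 animals with most SLC17A7 had the highest sums, with CCK at 166, 136 and 80.8 TPM.

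CCK was also lower where projection neuron markers were higher (r = -0.57, rho = -0.77). The summed astrocyte markers had r = 0.79 with PVALB (0.74 without 2 animals) and 0.69 with CCK (0.67). SST had r = -0.82 (-0.79) with the summed list of dopamine synthesis and storage. That sum had a median of 186 TPM and was nearly all ALDH1A1, so this r describes ALDH1A1 and not dopamine synthesis. LHX6 and TAC3 followed the summed cholinergic markers, a list that includes NGFR, with r = 0.74 and 0.59. Without the 2 animals farthest in that sum, r was 0.76 and 0.67. CALB2 had r = 0.77 with the cholinergic sum but 0.46 without 2 animals. With the projection neuron sum, r was 0.75 for NPY (0.35 without 2 animals), 0.59 for NOS1 (0.55) and 0.28 for SST (0.26). The TPM scale ties all these values together, since each is a share of the same total.

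**Figure D5:**
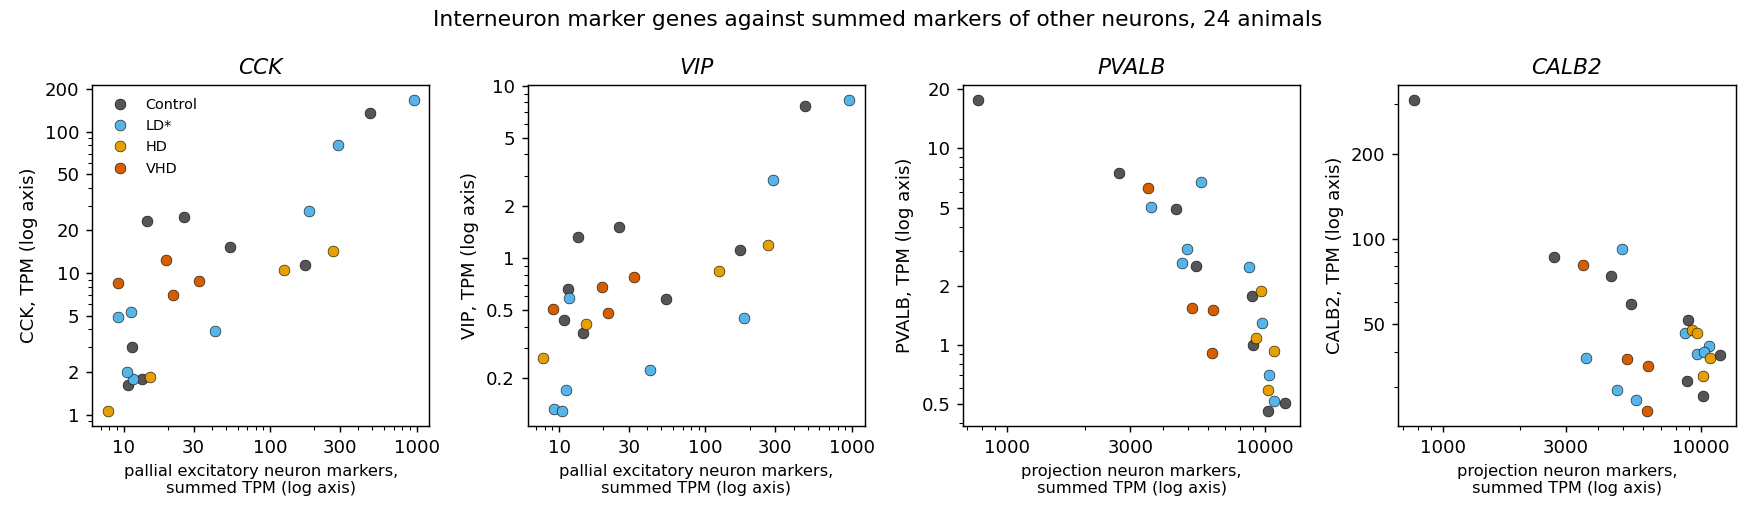
TPM of CCK and VIP against the summed pallial excitatory neuron markers, and of PVALB and CALB2 against the summed projection neuron markers, in 24 animals by group (all axes log). CCK and VIP are higher in animals with a higher pallial sum, PVALB is lower along the whole range of the projection neuron sum, and CALB2 is set apart mainly by 1 Control at 309 TPM.

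The genes most like each member over the 24 animals, by Pearson's r, were STARD3 (0.90), H2AFY2 (0.87) and MLH3 (0.86) for SST, BIRC3, ZNF26 and TMEM159 (each 0.86) for NPY, and C9orf91 (0.92), GABRG3 (0.91) and CERS6 (0.91) for NOS1. For PVALB they were RANBP1 (0.93), ARAP1 (0.93) and NPAS1 (0.92), for CALB2 QPCT (0.93), ELFN1 (0.92) and DOK7 (0.91), and for TAC3 CALCR (0.93), CLEC3A (0.92) and ARHGAP36 (0.90). LGI2 (0.92), HCN3 (0.88) and RCAN3 (0.88) were most like LHX6, and TBC1D10A (0.85), CREB3L3 (0.83) and KCNK9 (0.82) most like TH. NTNG2 (0.92), SYTL2 (0.91) and PDLIM1 (0.91) were nearest to CCK, and GRM2 (0.89), SOWAHB (0.87) and MLIP (0.87) to VIP. None of the 10 genes was among the 3 nearest of another.

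The neighbours of these markers in their pathways were weighed as lists. CORT, the somatostatin-like peptide cortistatin, was at 64.7 TPM and CHODL, a marker of long-range somatostatin neurons, at 14.9 TPM. Of the MGE and interneuron transcription factors, DLX6 (38.1 TPM) was highest, and MAF did not pass the filter. In HD* versus Control, 9 of the 10 transcription factors tested were lower, but only 22.2% of all genes were higher in this comparison. SOX6 was at -0.36 ± 0.14, SATB1 at -0.37 ± 0.20 and DLX1 at -0.45 ± 0.29 (log2), and none of the 10 passed (limma, adjusted p = 0.706 for each of these 3).

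Among markers of fast-spiking interneurons, KIT, a receptor tyrosine kinase, was at 25.5 TPM and KCNC1, a channel for fast firing, at 18.1 TPM, both above PVALB itself. In HD* versus Control, ETV1 (-0.32 ± 0.17), ERBB4 (-0.25 ± 0.16) and KCNC2 (-0.60 ± 0.43) had the smallest p of that list (adjusted p = 0.706 each). Markers of interneurons of the caudal ganglionic eminence were led by LAMP5 (451 TPM), which was lowest in Control 6 (56.2 TPM) like the projection neuron markers, and CXCL14 (86.5 TPM). RELN (-0.51 ± 0.22), NR2F2 (-0.64 ± 0.28) and PROX1 (-0.41 ± 0.19) had the smallest p of that list in HD* versus Control, with an adjusted p of 0.706 each.

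For TH the remaining dopamine genes were at low levels. DDC, which completes dopamine synthesis, was at 2.51 TPM, but the dopamine transporter SLC6A3 (0.080 TPM) and the vesicular transporter SLC18A2 (0.318 TPM) did not pass the filter. EN1 and FOXA2, transcription factors of midbrain dopamine neurons, were at 0 in 17 and 15 of 24 animals. ALDH1A1, an enzyme also found in other cells, was at 182 TPM.

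Of the 12 peptide receptors tested, the cholecystokinin receptor CCKBR (29.0 TPM), the somatostatin receptor SSTR2 (22.9 TPM) and the neuropeptide Y receptor NPY1R (15.8 TPM) were the highest. None was called in HD* versus Control, where 9 of 12 were lower and 22.2% of all genes were higher. The smallest p were those of SSTR3 (-0.59 ± 0.36), SSTR1 (-0.41 ± 0.30) and NPY2R (-0.28 ± 0.24). In VHD versus HD, 10 of the 12 were lower, where 34.8% of all genes were higher, and 2 were called (SSTR2 at -1.36 ± 0.23, adjusted p = 0.00641, and CCKBR at -0.83 ± 0.21, adjusted p = 0.0263), against 11.4% of all genes called lower.

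In HD* versus Control the nitric oxide genes with the smallest p were PDE9A (0.26 ± 0.12), PRKG2 (-0.18 ± 0.19) and NOS1AP (-0.26 ± 0.28), none of them called. Nitric oxide acts through soluble guanylate cyclase, and its subunit gene GUCY1A2 fell by 1.14 ± 0.25 in VHD versus HD on the log2 scale (adjusted p = 0.0150), the 1 gene called of 10 of nitric oxide signalling, where 14.6% of all genes were called. Of 5 genes of GABA handling, the synthetic enzyme GAD2 (-1.08 ± 0.24, adjusted p = 0.0157) and the vesicular transporter SLC32A1 (-0.97 ± 0.17, adjusted p = 0.00689) were called lower, against 11.4% of all genes. The transcription factor gene DLX6 (-0.84 ± 0.15, adjusted p = 0.00762) and KIT of the fast-spiking list (-0.82 ± 0.24, adjusted p = 0.0417) were also called lower. The lists of caudal interneurons, cholinergic markers and dopamine synthesis had 0 calls in this comparison at an adjusted p under 0.05. At an unadjusted p under 0.05 these lists had 2, 0 and 0 genes. The genes named as called in VHD versus HD were chosen after their values were seen. Astrocyte GFAP, oligodendrocyte MBP and microglial AIF1 and C1QA were called higher in VHD, and the pallial and endothelial lists had 0 calls by limma (1 and 0 genes at an unadjusted p under 0.05).

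The 10 symbols were also looked up in RefSeq genes of T2T-MMU8v2.0, another rhesus assembly than that used for alignment, and all 10 were found. SST overlaps 1 and NOS1 overlaps 3 other genes in it, so their values may hold reads of such neighbours if the counting did not use strand.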

How the data were processed

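PolyA-selected RNA of the NAcc core was sequenced, aligned by the authors to the MacaM assembly with STAR 2.5.2b and counted on genes with HTSeq 0.6.1p1. Whether counting used strand is not given in the sources used here. The deposited values, which the authors call normalized counts, were taken as TPM because they sum to 999998 to 1000000 in each animal. Of the 2000 lowest values above 0 in each animal, 2.85% to 4.7% were whole multiples of the smallest (within 0.02), so they lack the shared step that CPM values of whole reads would have. How lengths entered is not given in the sources used here. The study gives an average read number only, and the depth of each animal is unknown. Groups, cohorts and intakes came from the labels, and 0 pairs of libraries were identical.

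Values were transformed to log2(TPM + 1), which understates changes of weak genes, and limma 3.58.1 (R 4.3.3, empirical Bayes with trend) was run on 13637 genes averaging 1 TPM or more, adjusted by the Benjamini-Hochberg method at 0.05 over all genes. The 3 groups shared a model of 24 animals, VHD versus HD used 8 animals, and intake 16 drinkers. Each animal is 1 replicate. Exact permutation tests were two-sided over animals. Likeness is Pearson's r, computed with Python 3.11.15 and numpy 2.4.6, given as a description.

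The 10 genes, the gene lists and the tests were chosen with earlier results of these data known. Named genes are the 10 members, the 3 most correlated genes of each, and from lists at most 3 genes with the smallest p in HD* versus Control and the most abundant. Genes named for VHD versus HD were chosen after their values were seen. Some genes of the lists are not reported here. Alternatives were pseudocount 0.1, filters of 10 TPM and none, trimmed mean of M-values (TMM) rescaling, cohort, group and projection marker covariates, other sets of animals, and each animal left out. The alternatives without animals high in NGFR or SLC17A7, and the marker covariate in VHD versus HD, were added after seeing the data.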

Additional observations from a re-analysis of the deposited data

Results flagged for a closer look

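By Dixon's test, a single animal lay far from the rest of its group in 14 of the 50 gene and group combinations examined, in 6 animals. The limits of the test flag about 1 in 20 groups of normally spread values. It was run on TPM without the log transform, where several of these genes are skewed, so that rate does not apply here. These combinations overlap, since HD and VHD animals are also HD* animals. VHD 4 was far below the others in SST (288 TPM, next 692 TPM), within VHD and within HD*. Control 6 was far above the other Controls in PVALB (17.5 TPM, next 7.47 TPM), CALB2 (309 TPM, next 86.6 TPM) and TH (9.67 TPM, next 5.05 TPM). VHD 2 was far above in PVALB (6.27 TPM, within VHD and within HD*), and in CALB2 (80.7 TPM) and LHX6 (35.4 TPM) within HD*. Control 2 was far above in CCK (136 TPM) and VIP (7.60 TPM), LD 2 in CALB2 (92.2 TPM), and LD 4 in TH (8.13 TPM) and VIP (8.22 TPM).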

How the results depend on the processing

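For HD* versus Control, LD* versus Control, HD* versus LD* and intake, 0 genes were called in every setting run, 0 to 0 with 1 animal left out. The 1997 genes called in VHD versus HD became 0 with all 24 animals in 4 groups and 0 with the projection neuron marker covariate, and 476 (without VHD 3) to 4651 (without VHD 2) with 1 animal left out, with 607 without HD 3, 681 without HD 2, 723 without HD 4 and 1094 without HD 1. The marker covariate was hardly separate from the HD and VHD groups, so the loss of calls with it says nothing about the markers. The cause of these changes was not tested. Of 1192 alternative values of the 10 genes, 1060 kept direction and call, 125 changed sign, 6 passed an adjusted p under 0.05 and 1 an unadjusted exact test, and 0 lost a call.

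With TMM rescaling, the log2 value changed sign in HD* versus Control NOS1 (0.11) and TAC3 (0.0072), in HD* versus LD* NOS1 (0.043), CALB2 (0.062), TAC3 (0.041) and LHX6 (0.065), in VHD versus HD CALB2 (0.17), LHX6 (0.085), TH (0.040) and VIP (0.050), in intake slope among drinkers LHX6 (0.023). With a pseudocount of 0.1, the log2 value changed sign in HD* versus LD* VIP (0.041), in VHD versus HD VIP (0.020). With the projection neuron marker covariate, the log2 value changed sign in HD* versus Control SST (-0.0034) and TAC3 (0.016), in LD* versus Control NOS1 (-0.11), PVALB (0.21) and TAC3 (0.052), in VHD versus HD PVALB (-1.51), TAC3 (-0.83) and CCK (-1.26). With cohort as a covariate, the log2 value changed sign in LD* versus Control CCK (-0.087), in HD* versus LD* NPY (-0.17), CALB2 (0.46), TAC3 (0.38) and LHX6 (0.080), in intake slope among drinkers NPY (-0.14) and VIP (0.17). With drinking group as a covariate, the log2 value changed sign in intake slope among drinkers PVALB (0.42) and TH (-0.060). Without the 3 animals high in NGFR, the log2 value changed sign in HD* versus Control SST (-0.052) and NPY (-0.032), in LD* versus Control NPY (-0.11), NOS1 (-0.13), PVALB (0.39) and TAC3 (0.097). Without the 3 animals high in SLC17A7, the log2 value changed sign in LD* versus Control NOS1 (-0.047) and CCK (-0.55), in HD* versus LD* NPY (-0.014), CALB2 (0.15), LHX6 (0.0019), CCK (0.35) and VIP (0.35).

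With 1 animal left out, these log2 values changed sign in at least 1 setting. For HD* versus Control NOS1 ran from -0.087 to 0.098, SST ran from -0.047 to 0.24 and TAC3 ran from -0.30 to 0.099. For LD* versus Control CCK ran from -0.51 to 0.52, NOS1 ran from -0.052 to 0.12, NPY ran from -0.00092 to 0.27, PVALB ran from -0.38 to 0.14, TAC3 ran from -0.28 to 0.13 and VIP ran from -0.56 to 0.046. For HD* versus LD* CALB2 ran from -0.16 to 0.14, LHX6 ran from -0.17 to 0.092, NOS1 ran from -0.11 to 0.073, NPY ran from -0.032 to 0.13, SST ran from -0.21 to 0.048, TAC3 ran from -0.24 to 0.18, TH ran from -0.031 to 0.30 and VIP ran from -0.31 to 0.12. For VHD versus HD CALB2 ran from -0.33 to 0.22, LHX6 ran from -0.45 to 0.16, NPY ran from -0.38 to 0.0010, TH ran from -0.31 to 0.20 and VIP ran from -0.16 to 0.11. For intake slopes among drinkers CALB2 ran from -0.24 to 0.055, CCK ran from -0.68 to 0.10, LHX6 ran from -0.13 to 0.023, NPY ran from -0.0087 to 0.092, SST ran from -0.16 to 0.018, TAC3 ran from -0.19 to 0.15 and TH ran from -0.036 to 0.13.

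The groups hold different, unrelated animals with 1 library each, so there were no pairs to analyse. The labels carry no replicate numbers, and the numbers used here follow the order of the samples. The cohort interactions were computed in 1 setting only. The depth of each animal is unknown, so no counting error is given for weak genes such as VIP.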
